A study of Mus musculus with 10 samples.

Results

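Collagens are the 36 genes on these arrays whose symbol has the form Col, a chain type number, the letter a and a chain number. They are 36 of the 12393 genes that carry a probe set with a single symbol, and each was read with its probe set of highest mean over the 10 arrays. By type, 9 encode fibrillar chains, 6 encode basement membrane (type IV) chains and 21 encode chains of other types. RNA of mouse cells was hybridised to 1-colour Affymetrix arrays, 2 for each of 5 groups. Secondary mouse embryonic fibroblasts (MEFs) are fibroblasts derived from iPSC that carry inducible Yamanaka factors (Pou5f1, Sox2, Klf4 and Myc), and in 3 groups they had expressed the factors for 32 days. These were a Sox2-positive fraction, a Sox2-negative fraction, and a day 32 sample for which no fraction is named. The other groups were established induced pluripotent stem cells (iPSC), grown with MEFs or in 2i with serum, where 2i stands for inhibitors of MEK and GSK3. Nothing in the labels tells whether MEFs were taken out of the co-culture before RNA was made, which clone was used, or whether replicates a and b were separate cultures. The p-values therefore measure only the spread between these samples, which may be technical.

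Collagen chains wind around each other in threes to form a triple helix. Fibrillar types I, III and V make the fibrils of connective tissue and are abundant in fibroblasts, whereas type IV chains form the sheet-like network of basement membranes and are made early in the embryo by endoderm and many epithelia. Type VI chains build beaded filaments in the matrix around mesenchymal cells. During reprogramming, fibroblasts are known to lose mesenchymal genes while they gain epithelial and then pluripotency genes.

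Values are the deposited log2 expression units, in which 1 unit is a factor of 2. The arrays fell into 2 classes by control probe sets. The 18S ribosomal RNA signal at the 3' end was 11.35 to 13.22 in both sorted fractions and iPSC with MEFs, and 5.25 to 6.55 in the day 32 sample and iPSC in 2i and serum. The median of all probe sets was 4.265 to 4.33 in the first class and 5.275 to 5.36 in the second, so comparisons within a class are given first. In other controls, given with the comparisons, iPSC with MEFs still differed from the sorted arrays. The day 32 sample likewise differed from iPSC in 2i and serum. Labelled identities were checked with marker lists. All 6 pluripotent cell markers were above log2 4 on both arrays of every group except the Sox2-negative fraction, which had 3. Of 11 fibroblast markers, 1 was above 4 on both arrays of the Sox2-positive fraction, 6 in the Sox2-negative fraction, 8 in the day 32 sample, 3 in iPSC with MEFs and 2 in iPSC in 2i and serum. In bulk samples such as these, fewer cells of a type and less RNA per cell cannot be told apart.

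Most collagen genes were dim. Of the 36 genes, 14 stayed at or below log2 4 on all 10 arrays, 3 exceeded it on exactly 1 array and 3 on all 10. The 3 that exceeded it everywhere were Col4a1, Col5a1 and Col18a1, each of which has another probe set that was under 4 on at least 1 array. A gene above 4 on at least 2 arrays was tested, which left 19 collagens (7 fibrillar, 3 basement membrane and 9 other). Of these, 4 passed through 1 group alone, Col4a5, Col5a3 and Col16a1 through the day 32 sample and Col1a2 through iPSC with MEFs, so they had to differ from other groups, and counts and medians over the tested collagens are descriptions only. Just inside this limit lay Col16a1, at 4.09 and 4.04 in the day 32 sample and lower elsewhere. Just outside it lay Col9a1, Col22a1 and Col26a1, whose highest values were 4.49, 4.18 and 4.09. The genes that were never above 4 included the cartilage chains Col10a1, Col11a1, Col11a2 and Col9a2, the anchoring fibril chain Col7a1, and the type IV chains Col4a3, Col4a4 and Col4a6, of which Col4a6 came up to the limit on 1 day 32 array.

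Counted as above log2 4 on both arrays of a group, 6 collagens were detected in Sox2-positive cells, 8 in Sox2-negative cells, 14 in the day 32 sample, 7 in iPSC with MEFs and 7 in iPSC in 2i and serum. The fibrillar class had 1 such gene in Sox2-positive cells (Col5a1), 2 in Sox2-negative cells, 5 in the day 32 sample, 4 in iPSC with MEFs and 2 in iPSC in 2i and serum. The type IV class had 2, 2, 3, 1 and 2 such genes in the same groups. With the mean of all probe sets, the fibrillar class had 0 such genes in Sox2-positive cells. The arrays of the day 32 sample and of iPSC in 2i and serum have a higher median over all probe sets. Their counts are therefore not on the same footing as those of the other groups. After quantile normalization the counts over all 36 collagens were 7, 8, 13, 9 and 5 in the order of groups above.

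**Figure D1:**
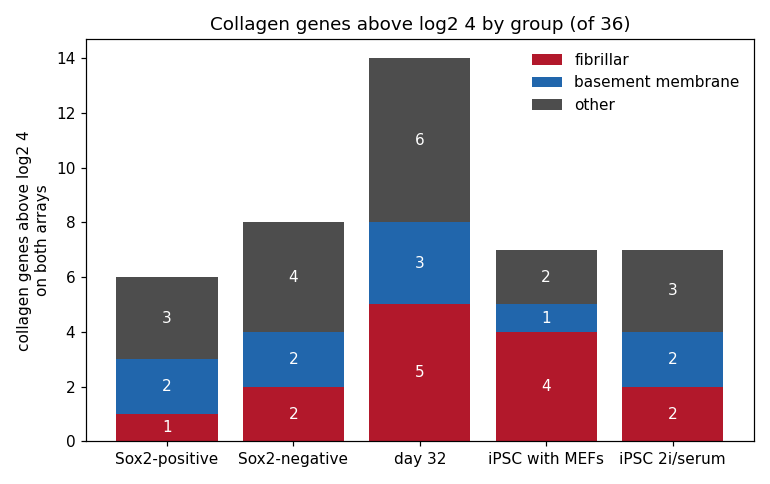
Number of collagen genes, of 36, above log2 4 on both arrays of each group (y axis), split into fibrillar (red), basement membrane (blue) and other types (grey). The day 32 sample has 14 genes above the limit and the other groups 6 to 8.

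The fibrillar genes did not share a pattern over the groups. Col1a1, the alpha 1 chain of type I collagen, read 2.80 and 3.15 in Sox2-positive cells, 3.16 and 5.43 in Sox2-negative cells, 5.33 and 6.96 in the day 32 sample, 7.49 and 7.43 in iPSC with MEFs, and 5.07 and 6.86 in iPSC in 2i and serum. Its partner chain Col1a2 read 1.92 and 1.74, 1.79 and 2.23, 2.67 and 2.40, 5.59 and 5.27, and 2.45 and 2.44 in the same groups. Only iPSC with MEFs had Col1a2 above 4, and both genes were highest there, with close replicates. The other probe set of each gene was also highest there, at 5.48 and 5.42 for Col1a1 and 3.49 and 3.17 for Col1a2. On the same arrays the fibroblast and muscle actin Acta2 was at 8.50 and 8.13, and the mesenchymal matrix gene Mgp at 4.02 and 4.30, while S100a4, Twist2, Dcn and Lum stayed under 3. The part of co-cultured MEFs in the type I values was not tested.

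On the probe sets used, Col3a1, Col5a2 and Col5a3 were instead highest in the day 32 sample. Col3a1, the chain of type III collagen, read 2.79 and 2.70 in Sox2-positive cells, 3.65 and 5.33 in Sox2-negative cells, 5.69 and 5.79 in the day 32 sample, 3.61 and 4.14 in iPSC with MEFs, and 2.62 and 5.0 in iPSC in 2i and serum. Col5a2, a type V chain that helps to start type I fibrils, read 6.16 and 3.39, 6.95 and 8.54, 9.28 and 8.65, 3.99 and 3.19, and 2.93 and 6.80 in that order. The day 32 arrays were above all others for both genes. Against the sorted fractions and iPSC with MEFs this rank crosses the array classes, whose medians differ. The nearest sorted array was close, at 8.54 against 8.65 for Col5a2 and 5.33 against 5.69 for Col3a1. After quantile normalization both genes lost their limma calls between the mean of the sorted fractions and the day 32 sample. The differences were then -1.48 (adjusted p = 0.268) for Col5a2 and -1.16 (0.151) for Col3a1. The Col5a2 replicates lay far apart in the Sox2-positive cells and in iPSC in 2i and serum. Its other probe set gave 3.62 and 4.08 in Sox2-positive cells, so the probe sets disagree there on which replicate is higher. Col3a1 and Col5a2 are neighbours on chromosome 1, 24.6 kb apart and transcribed towards each other (GRCm38.p6 annotation). On the probe set used, Col5a1, the other main type V chain, was well above 4 on every array and varied least among the tested fibrillar genes, between 5.59 on a Sox2-positive array and 7.83 on an array of iPSC in 2i and serum. Of its other probe sets, 1 read 2.31 to 2.92 on all arrays and 1 read 2.65 to 3.54 in the sorted fractions. Col5a3 passed 4 only in the day 32 sample (4.81 and 4.57). Its other probe set, under 4 throughout, was not highest there (2.03 and 2.14, against 2.34 and 2.61 in iPSC with MEFs). The cartilage chain Col2a1 lay between 2.55 and 4.95 on all arrays.

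The paired type IV genes Col4a1 and Col4a2 were bright in all 3 day 32 groups and lowest in iPSC with MEFs. Col4a1 read 9.78 and 7.64 in Sox2-positive cells, 9.65 and 10.05 in Sox2-negative cells, 10.09 and 10.75 in the day 32 sample, 5.93 and 5.83 in iPSC with MEFs, and 7.19 and 9.67 in iPSC in 2i and serum. Col4a2, whose chain joins that of Col4a1 in the most widespread type IV trimer, read 8.57 and 7.51, 8.68 and 9.08, 10.12 and 10.49, 4.84 and 3.82, and 6.62 and 9.21 in the same groups. Every array outside iPSC with MEFs was above both arrays of that group for both genes. The genes lie head to head on chromosome 8 (Col4a1 from 11198423 to 11312889, Col4a2 from 11312805 to 11449287, GRCm38.p6), Col4a1 on the minus and Col4a2 on the plus strand, and the annotated genes overlap by 85 bases. Over the 5 group means they correlated with Pearson r = 0.99, a description of 5 points from shared arrays. The X-linked chain Col4a5 behaved differently, since it passed 4 only in the day 32 sample, at 6.48 and 5.85, and was at 1.96 and 1.82 in Sox2-positive and 2.93 and 2.72 in Sox2-negative cells. Its other probe set was under 4 on every array. That probe set read 3.80 and 3.60 in the day 32 sample and 3.06 and 2.97 in iPSC in 2i and serum.

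The 3 type VI genes on the array followed each other closely. Col6a1 read 2.16 and 2.82 in Sox2-positive cells, 5.53 and 6.17 in Sox2-negative cells, 8.02 and 7.25 in the day 32 sample, 3.47 and 3.69 in iPSC with MEFs, and 2.66 and 3.73 in iPSC in 2i and serum. Col6a2 read 1.99 and 1.82, 3.23 and 5.69, 6.47 and 5.82, 3.84 and 3.83, and 2.61 and 3.50, and Col6a3 read 1.93 and 1.62, 4.06 and 4.18, 6.14 and 5.71, 2.15 and 2.25, and 2.55 and 2.87. All 3 were highest on the day 32 arrays, and by group mean the Sox2-negative fraction came next and Sox2-positive cells were lowest. For Col6a1 the Sox2-positive arrays overlapped those of iPSC in 2i and serum. For Col6a2 the Sox2-negative replicate a lay below iPSC with MEFs. The other Col6a2 probe set passed 4 only on day 32 replicate a. It read 2.06 and 1.88, 3.02 and 3.50, 4.04 and 3.86, 2.47 and 2.66, and 2.07 and 2.17 in the order of groups above. Col6a1 and Col6a2 are 85.2 kb apart on chromosome 10, and Col6a3 is on chromosome 1. Because these genes moved together, the sequence upstream of each annotated gene (RefSeq, GRCm38.p6, minus strand, written 5' to 3' towards the gene) is shown with matches to 4 short motifs in capitals. The windows are chr10:76726045-76726294 for Col6a1, chr10:76623631-76623880 for Col6a2 and chr1:90844002-90844221 for Col6a3.
Col6a1: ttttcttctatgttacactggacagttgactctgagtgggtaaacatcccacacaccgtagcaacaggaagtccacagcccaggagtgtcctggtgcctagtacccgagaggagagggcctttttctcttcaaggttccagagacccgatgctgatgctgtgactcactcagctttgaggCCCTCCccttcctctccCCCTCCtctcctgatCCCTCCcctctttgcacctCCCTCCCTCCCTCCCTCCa
Col6a2: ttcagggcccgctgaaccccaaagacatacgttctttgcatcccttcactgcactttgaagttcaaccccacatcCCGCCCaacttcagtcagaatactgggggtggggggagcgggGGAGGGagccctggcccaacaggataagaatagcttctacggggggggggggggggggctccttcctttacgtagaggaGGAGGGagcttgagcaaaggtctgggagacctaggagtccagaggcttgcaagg
Col6a3: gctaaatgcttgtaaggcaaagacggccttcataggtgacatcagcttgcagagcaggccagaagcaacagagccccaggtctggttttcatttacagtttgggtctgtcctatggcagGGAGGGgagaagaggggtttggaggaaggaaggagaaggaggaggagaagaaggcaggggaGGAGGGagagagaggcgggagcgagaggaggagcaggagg
The motifs were the CCAAT box, the GC box GGGCGG, the TATA box TATAAA and the run GGAGGG, each on both strands, and the last was added after the sequences had been read. No window held CCAAT or TATAAA, which 33.8% and 12.4% of the 32851 RefSeq promoter windows of 250 bases contain, although the Col6a3 window, at 220 bases, is shorter than those. GGGCGG occurred 1 time, upstream of Col6a2, against 32.7% of all windows. GGAGGG or its reverse complement occurred 7 times (with overlaps) upstream of Col6a1 and 2 times upstream of both Col6a2 and Col6a3, where 35.2% of all windows hold at least 1. A match describes letters only. Of the 36 collagens 27 have an entry in that promoter table.

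The remaining tested collagens each had a pattern of their own. Col9a3, a cartilage chain that decorates fibrils, read 7.29 and 5.35 in Sox2-positive cells, 2.09 and 2.73 in Sox2-negative cells, 6.61 and 8.01 in the day 32 sample, 3.04 and 2.94 in iPSC with MEFs, and 4.94 and 4.32 in iPSC in 2i and serum. Its second probe set ran the same way between the fractions, at 4.54 and 3.68 in Sox2-positive and 2.84 and 2.94 in Sox2-negative cells. Col18a1, a basement membrane collagen that is the source of endostatin, read 7.30 and 7.90, 5.17 and 5.89, 7.05 and 8.52, 9.53 and 9.32, and 9.27 and 8.80 in the same groups. It was the only tested collagen with all 4 iPSC arrays above all 6 day 32 arrays. The transmembrane chain Col13a1 was above 4 on both arrays only in iPSC in 2i and serum (4.85 and 4.12). Col17a1, the hemidesmosome collagen of basal epithelium, passed 4 on Sox2-negative replicate b (4.60) and day 32 replicate b (4.54) alone. Col20a1 lay between 3.42 and 4.47 on all arrays.

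**Figure D2:**
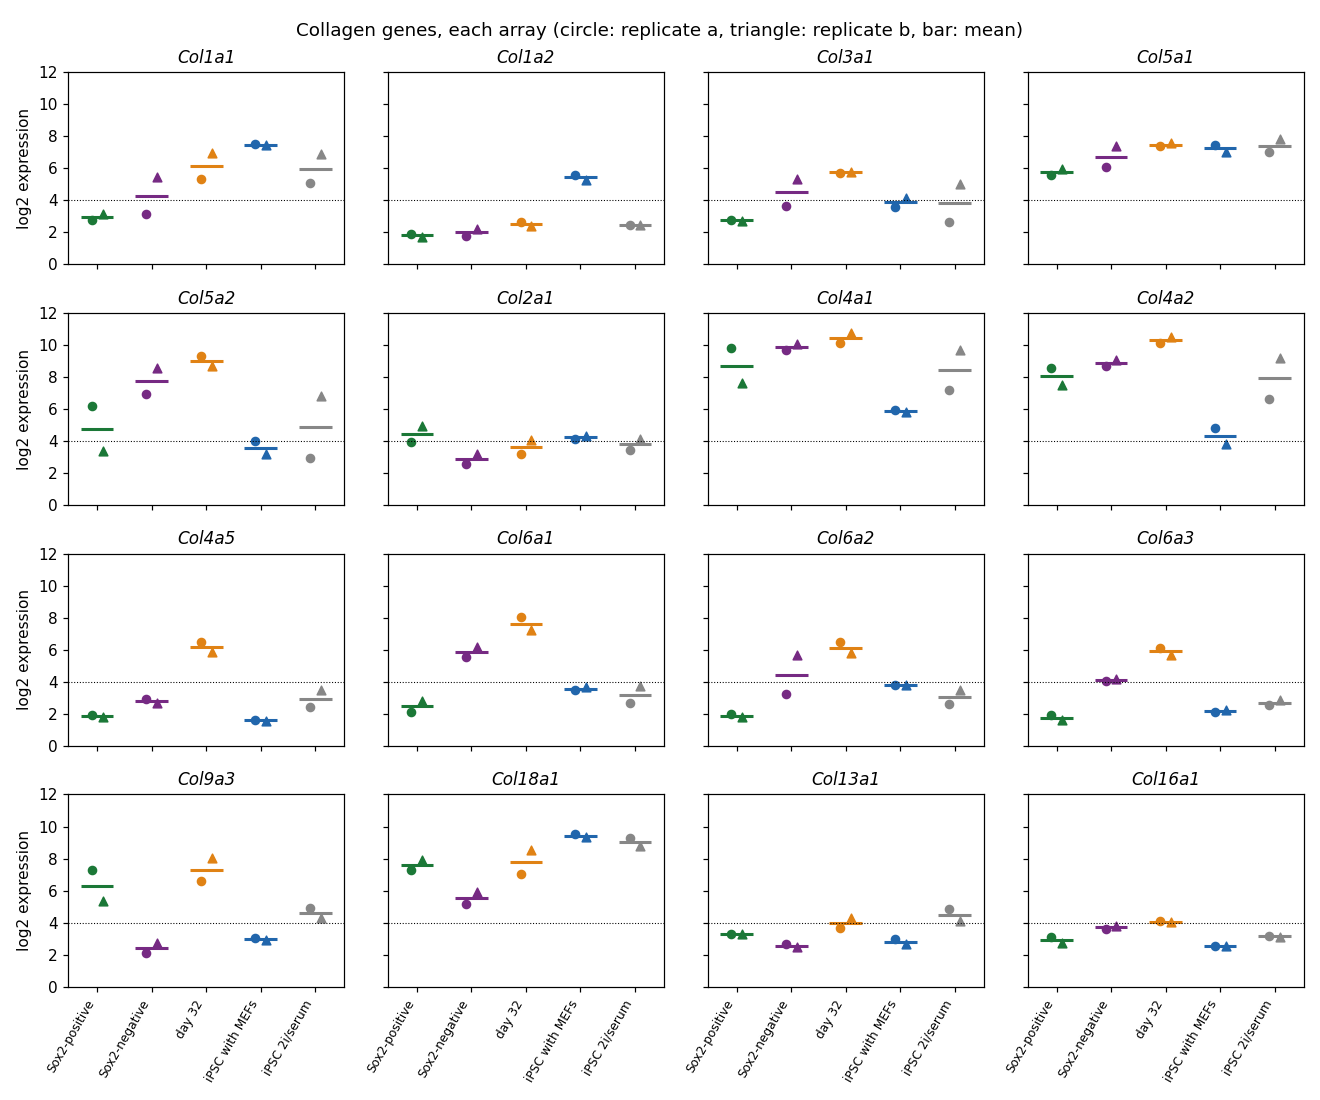
Log2 expression of 16 tested collagen genes on each array (y axis; circles, replicate a; triangles, replicate b; bars, group means), with the 5 groups on the x axis and the log2 value of 4 dotted. Col1a1 and Col1a2 are highest in iPSC with MEFs, Col4a1 and Col4a2 lowest there, and the type VI genes highest in the day 32 sample.

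Replicates differed more for collagens than for other genes in some groups. In iPSC in 2i and serum the median absolute gap between replicates was 0.76 over the 19 tested collagens and 0.26 over all 8599 genes, and 7 of the 19 collagens had a gap above 1, where 6.1% of all genes did. Replicate b was the higher in the 5 largest of these gaps, namely Col5a2 (3.87), Col4a2 (2.59), Col4a1 (2.48), Col3a1 (2.38) and Col1a1 (1.79). On the same replicate b Acta2 was at 8.03, against 2.71 on replicate a, and S100a4 at 3.79 against 2.27, while Pdgfrb was lower there (5.53 against 7.23) and Fn1 close (10.8 against 11.07). Of the 11 fibroblast markers 3 were above 4 on replicate b and 2 on replicate a. The part of fibroblast-like cells in the gap was not tested. In the Sox2-negative fraction, 15 of 19 collagens were higher on replicate b, with gaps of 2.46 for Col6a2 and 2.27 for Col1a1 (median absolute gap 0.64, against 0.41 over all genes). In Sox2-positive cells replicate a was the higher for Col5a2, Col4a1 and Col9a3. iPSC with MEFs had the closest replicates, with a median absolute gap of 0.10 over the collagens.

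**Figure D3:**
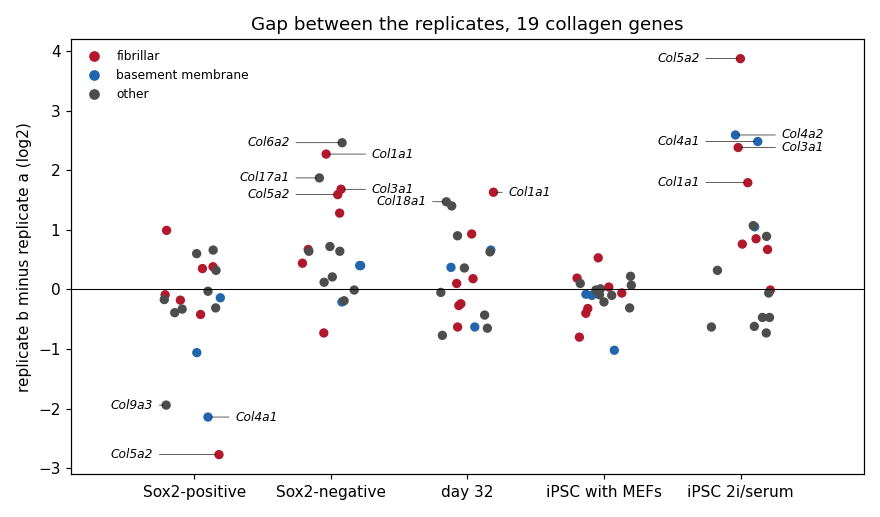
Difference between replicate b and replicate a in log2 units (y axis) for the 19 tested collagens in each group (x axis; points spread sideways for legibility), coloured by type, with gaps above 1.4 named. The 5 largest gaps in iPSC in 2i and serum are all positive, from Col1a1 at 1.79 to Col5a2 at 3.87.

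Sox2-positive and Sox2-negative cells differed in type VI collagen, Col9a3 and Col18a1. All 3 type VI genes were lower in Sox2-positive cells. Col6a1 averaged 2.49 ± 0.47 in Sox2-positive and 5.85 ± 0.45 in Sox2-negative cells (SD, n = 2 each), a difference of -3.36 (SE 0.44, limma adjusted p = 0.00229). Where the lower group was under 4 on every array the fold is given only from 4 upwards, and for Col6a1 it was at least 3.61-fold. Col6a3 differed by -2.34 (SE 0.26, adjusted p = 0.00117) and Col6a2 by -2.55 (SE 0.67, adjusted p = 0.0391), and with Sox2-positive cells held at 4 these are at least 1.09-fold and 1.38-fold. In the other direction Col9a3 was at least 4.99-fold higher in Sox2-positive cells (difference 3.91, SE 0.64, adjusted p = 0.00649) and Col18a1 4.2-fold higher (2.07, SE 0.48, adjusted p = 0.0257). The arrays of the fractions did not overlap for any of the 5 genes. This does not set the 5 apart, since it held for 15 of 19 collagens tested, and the share over all genes is not given. The called genes are 5 of 19 collagens tested (26.3%), 2 higher and 3 lower, where limma called 12.5% of all 8599 genes (6.86% higher and 5.65% lower).

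None of the 7 fibrillar and 3 type IV genes was called between the fractions at an adjusted p under 0.05, although 3 and 1 of them had an unadjusted limma p under 0.05. Col5a2 had the largest fibrillar difference, at -2.97 (SE 1.22, adjusted p = 0.144), and its 2 Sox2-positive arrays lay below both Sox2-negative arrays. Over all 19 collagens the median difference was -0.94 and 5 differences were positive, beside a median of -0.02 over all genes. Col6a1 kept its call under every alternative. Col6a2 was not called without Sox2-positive replicate a (adjusted p = 0.0868) or b (0.143) or Sox2-negative replicate b (0.0915, difference -1.33), and Col18a1 without Sox2-negative replicate a (0.106) or Sox2-positive replicate b (0.126). Col6a2 was also not called with no filter or only the 6 arrays with high 18S (0.0687 each), array weights (0.0791), only the arrays compared (0.157) or values under 4 set to 4 (-0.85, adjusted p = 0.346), nor Col18a1 with array weights (0.0836) or only the arrays compared (0.0624). Without Sox2-positive replicate b, 3 collagens were called. Col6a3 and Col9a3 kept their calls without any array, but not when values under 4 were set to 4 (-0.12, adjusted p = 0.817, and 2.32, adjusted p = 0.0699). Of 8 fibroblast markers tested, limma called 2 lower in Sox2-positive cells, as were the type VI genes, and 1 higher, Fn1. Over all genes 5.65% were called lower and 6.86% higher. The 2 lower markers were Mgp, at 2.42 and 1.88 in Sox2-positive and 6.26 and 6.46 in Sox2-negative cells, and S100a4, at 2.48 and 2.18 against 6.82 and 6.96. The summed level of the 11 markers ran the other way (10.97 to 11.13 against 9.22 to 9.95 in log2), with Fn1 at 10.9 and 11.09 in Sox2-positive and 8.04 and 7.09 in Sox2-negative cells, and Dcn and Lum were under 4 in both fractions. The part of more fibroblast-like cells in the type VI difference was not tested.

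Some genes that act on collagen outside the cell were also lower in Sox2-positive cells. Of 8 tested crosslinking and fibril partner genes 4 were lower and 0 higher (limma, adjusted p under 0.05; 5.65% of all genes were lower), in order of p the matrix protein Thbs1 (at least 14.5-fold), the proteoglycan Bgn (at least 16.2-fold), and the crosslinking enzymes Loxl1 and Loxl4 (at least 2.75-fold and 4.52-fold). These 4 calls held without any single array. Counts of higher genes are to be read beside the 6.86% of all genes that limma called higher. Of 14 folding and modification enzymes 1 was higher, the lysyl hydroxylase Plod1 (3.97-fold, adjusted p = 0.0163), and 1 lower, the collagen chaperone Serpinh1 (3.90-fold, adjusted p = 0.0185). Both lost their calls without Sox2-negative replicate a (0.064 and 0.0775) or Sox2-positive replicate b (0.0873 and 0.0919). Among 10 basement membrane partners of type IV collagen 2 were higher and 1 lower, led by nidogen 2 (Nid2), 7.70-fold higher (adjusted p = 0.00424). Nid2 held without any single array, while Agrn (higher) and Lama4 (lower) lost their calls on leaving out any of the 4 (0.0674 to 0.168 and 0.071 to 0.116). Of 6 secretion and trimming genes 1 was higher and 1 lower, of 4 receptors 0 were higher and 1 lower (Sec24d, Bmp1 and Ddr2, each losing its call on leaving out 3 of the 4 arrays in turn), and of 5 degradation genes and 7 transcription regulators none was called by limma, with 0 and 2 at an unadjusted p under 0.05.

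Compared with iPSC with MEFs, Sox2-positive cells had less Col1a1 and Col1a2 and more Col4a1 and Col4a2 RNA. Col1a1 was at least 11-fold lower in Sox2-positive cells (difference -4.48, SE 0.81, limma adjusted p = 0.00417) and Col1a2 at least 2.69-fold lower (-3.60, SE 0.26, adjusted p = 0.000847). Col5a1 was 2.73-fold lower (-1.45, adjusted p = 0.0318) and Col18a1 3.54-fold lower (-1.83, adjusted p = 0.018). Col4a2 was 13.1-fold higher (3.71, SE 0.74, adjusted p = 0.00625), Col4a1 7.11-fold higher (2.83, SE 0.82, adjusted p = 0.0262) and Col9a3 at least 4.99-fold higher (3.33, adjusted p = 0.00519). These are 7 of 19 collagens (36.8%), close to the 35.9% called among all genes. By direction, 3 of 19 were higher, where 6.13% of all genes were, and 4 lower, where 29.8% were. The median over collagens was 0.07 and that over all genes -0.45. Within their 18S class the arrays of iPSC with MEFs stood apart in signs of RNA quality. For Actb, the 3' minus 5' control difference was 0.05 to 0.21 on the sorted arrays and 1.08 to 1.12 in iPSC with MEFs, that of Gapdh 1.03 to 1.56 against 2.53 to 3.18, and the upper quartile of all probe sets 6.87 to 6.91 against 7.37 to 7.38. Their part in the collagen differences was not tested.

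Col1a1, Col1a2 and Col9a3 kept their calls in this comparison under every alternative, Col1a2 having been tested only because the arrays of iPSC with MEFs were above 4. Col4a1 was no longer called without Sox2-positive replicate a (difference 1.76, adjusted p = 0.163) or iPSC with MEFs replicate a (0.107) or b (0.11), and Col4a2 without iPSC with MEFs replicate b (0.0524). Col18a1 did so without Sox2-positive replicate a (0.0984) or iPSC with MEFs replicate a (0.1) or b (0.0709), and Col5a1 without any of the 4 arrays (0.0562 to 0.165). Both also lost it after quantile normalization (0.163 and 0.133). The count of 7 became 4 without Sox2-positive replicate a or iPSC with MEFs replicate a, and 3 without iPSC with MEFs replicate b. Of the primitive or parietal endoderm markers, cells that make much type IV collagen in the embryo, 1 of 9 was above 4 on both Sox2-positive arrays and 0 in iPSC with MEFs, with summed log2 levels of 6.44 to 6.62 against 5.68 to 5.82. Of the 4 endoderm markers that were tested 3 were called higher and 0 lower by limma, namely Cubn (at least 1.05-fold), Dab2 (at least 1.16-fold) and Gata4 (1.12 log2 units, with every array under 4), and Foxa2, Sox7 and Afp were under 4 on these arrays. The part of such cells in the type IV difference was not tested.

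Pathway genes moved in both directions between these groups, and their counts are to be read beside the 6.13% of all genes called higher and 29.8% called lower. Of 14 folding and modification enzymes 3 were higher and 2 lower in Sox2-positive cells, led by the prolyl hydroxylase subunit P4ha1, 3.36-fold higher (limma adjusted p = 0.00288). Of 5 degradation genes 1 was higher, the inhibitor Timp1 (3.40-fold, adjusted p = 0.0028), and 3 were lower, led by the membrane-bound protease Mmp14 (at least 3.39-fold, adjusted p = 0.000997). Of 10 basement membrane partners 0 were higher and 2 lower. Of 8 crosslinking and partner genes 0 were higher and 1 lower, of 6 secretion genes 1 and 2, of 4 receptors 1 and 1, and of 7 regulators 0 and 3, of which Cebpb was first in order of p (5.22-fold lower, adjusted p = 0.00675). The calls of P4ha1, Timp1, Mmp14 and Cebpb held without any single array.

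Sox2-negative cells had less type I and more type IV collagen RNA than iPSC with MEFs, and more Col5a2, Col6a1 and Col6a3 RNA. This comparison uses the same iPSC with MEFs arrays, so likeness between the 2 comparisons is not independent. In Sox2-negative cells Col1a2 was at least 2.69-fold lower than in iPSC with MEFs (difference -3.42, SE 0.26, limma adjusted p = 9.84e-05), Col1a1 8.97-fold lower (-3.16, SE 0.81, adjusted p = 0.0118) and Col18a1 14.9-fold lower (-3.90, SE 0.48, adjusted p = 0.000471). Col4a2 was 23.4-fold higher (4.55, SE 0.74, adjusted p = 0.00155), Col4a1 15.7-fold higher (3.97, SE 0.82, adjusted p = 0.00435) and Col5a2 at least 13.4-fold higher (4.15, SE 1.22, adjusted p = 0.021). Col6a1 and Col6a3 were at least 3.61-fold and 1.09-fold higher (adjusted p = 0.00319 and 0.000741). Col16a1 and Col4a5 differed by 1.15 and 1.21 with every array of both groups under 4, and the cartilage chain Col2a1 by -1.36 (at least 1.19-fold lower, adjusted p = 0.033). In all 11 of 19 collagens were called (57.9%), against 47.5% of all genes, with 7 higher (12% of all genes) and 4 lower (35.5%). The median over collagens was 0.61 and over all genes -0.50.

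Of these calls Col1a2, Col18a1, Col4a1, Col4a2 and Col6a1 held under every alternative, Col1a2 having been tested only because the arrays of iPSC with MEFs were above 4. Col1a1 lost its call without Sox2-negative replicate a (difference -2.03, adjusted p = 0.0736) or iPSC with MEFs replicate a (0.0629) or b (0.0572), and Col5a2 without Sox2-negative replicate b (0.11) or iPSC with MEFs replicate a (0.067) or b (0.11). Col4a5 and Col2a1 each lost it without Sox2-negative replicate a (0.0863 and 0.156) or iPSC with MEFs replicate a (0.085 and 0.0976) or b (0.0992 and 0.137). With values under 4 set to 4, Col6a3 (difference 0.12, limma adjusted p = 0.699) and Col2a1 (-0.24, 0.579) were not called. Neither were Col16a1 and Col4a5 with that floor. The count was 7 without either array of iPSC with MEFs, and without Sox2-negative replicate b the median turned to -0.12. Of the 11 fibroblast markers 6 were above 4 on both arrays of Sox2-negative cells and 3 in iPSC with MEFs, with summed log2 levels of 9.22 to 9.95 against 11.66 to 11.99, and Dcn and Lum were under 4 on all of these arrays. Of the 8 tested, 4 were called higher (S100a4 and Prrx1, at least 7.41-fold and 5.43-fold, Mgp 4.59-fold, and Twist2 with no group mean above 4) and Fn1 was called lower (17.1-fold). No endoderm marker was above 4 on both arrays of either group, the sums were 6.09 to 6.11 against 5.68 to 5.82, and Gata4 was called at least 1.14-fold higher. The part of these cell types, or of the RNA quality values given above for iPSC with MEFs, in the differences was not tested. Of 8 crosslinking and partner genes 4 were higher in Sox2-negative cells and 0 lower, namely Loxl1 and Loxl4 (at least 2.75-fold and 4.52-fold), Thbs1 (11.1-fold) and Bgn (11-fold), where 12% of all genes were higher and 35.5% lower. Of 14 folding enzymes 6 were higher and 2 lower, the lower ones being the endoplasmic reticulum channel gene Tmem38b (5.84-fold) and P4hb, which encodes the disulfide isomerase that is also a prolyl hydroxylase subunit (2.20-fold). P4hb lost its call without iPSC with MEFs replicate a (adjusted p = 0.0912) and after quantile normalization (0.427). The collagen receptor integrin subunit Itgb1 was 6.19-fold higher (adjusted p = 0.00226), among 2 receptors higher and 1 lower of 4.

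**Figure D4:**
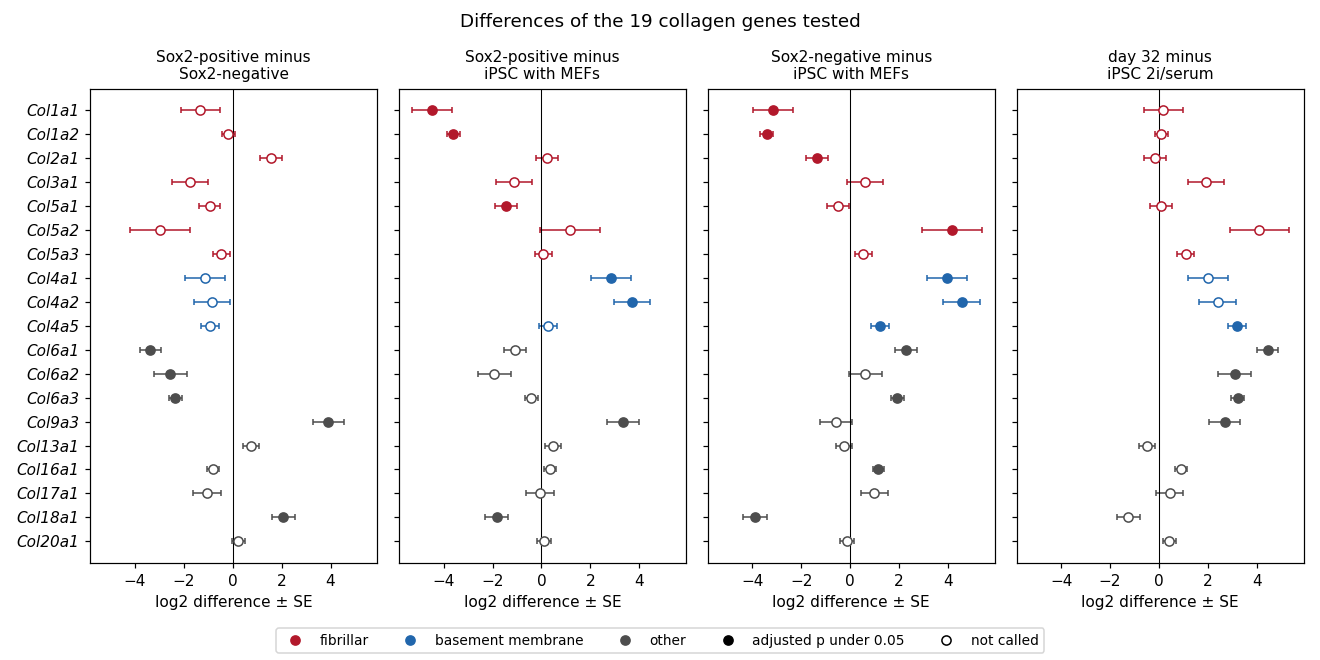
Log2 differences with SE (x axis) for the 19 tested collagens (rows) in the 4 comparisons that stay within an array class; red, fibrillar; blue, basement membrane; grey, other; filled, limma adjusted p under 0.05. Col4a1 and Col4a2 lie to the right of 0 against iPSC with MEFs for both fractions, Col1a1 and Col1a2 to the left, and the type VI genes to the right in the day 32 sample.

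The day 32 sample had more type VI collagen RNA than iPSC in 2i and serum. Col6a1 was at least 12.4-fold higher in the day 32 sample (7.64 ± 0.54 against 3.20 ± 0.76, SD, n = 2 each; difference 4.44, SE 0.44, limma adjusted p = 0.00172). Col6a3 was at least 3.80-fold higher (difference 3.21, adjusted p = 0.000943), Col6a2 at least 4.42-fold (3.09, adjusted p = 0.0273), Col4a5 at least 4.48-fold (3.20, adjusted p = 0.0024) and Col9a3 6.41-fold (2.68, adjusted p = 0.0379). These were 5 of 19 collagens higher and 0 lower, where 5.23% of all genes were higher, 2.5% lower and 7.73% called in all. A further 7 collagens had an unadjusted p under 0.05 without passing. The median over the 19 tested collagens was 1.09 and that over all genes -0.10. Since Col4a5, Col5a3 and Col16a1 passed the filter only through the day 32 sample, this median and the count are no support for a shift of collagens, and with no filter the median over collagens was 0.17. No fibrillar gene was called by limma, 3 of 7 having an unadjusted p under 0.05, and Col1a1 lay at 5.33 and 6.96 in the day 32 sample and at 5.07 and 6.86 in iPSC in 2i and serum.

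Replicate b of iPSC in 2i and serum bore on 2 large differences that were not called here. Col5a2 differed by 4.10 (SE 1.22, limma adjusted p = 0.0782) and Col4a2 by 2.39 (SE 0.74, adjusted p = 0.0888), and both day 32 arrays lay above both others. Without that replicate the differences were 6.03 (adjusted p = 0.0271) and 3.68 (0.0182). With it kept, Col5a2 was also called with the mean of all probe sets (3.98, adjusted p = 0.0216) and with array weights (0.0448). Col6a1, Col6a3 and Col4a5 kept their calls under every alternative, Col4a5 having been tested only because its day 32 arrays were above 4. On the other Col4a5 probe set, under 4 throughout, the day 32 sample read 3.80 and 3.60 against 3.06 and 2.97. Col6a2 lost its call without day 32 replicate a (0.205) or without either replicate of iPSC in 2i and serum (0.134 without a, 0.0759 without b), and Col9a3 without any of the 4 arrays (0.0722 to 0.216). Without day 32 replicate a or without replicate a of iPSC in 2i and serum, 3 collagens were called. Fibroblast markers above 4 on both arrays numbered 8 of 11 in the day 32 sample and 2 of 11 in iPSC in 2i and serum, while their summed log2 levels, in which Fn1 was the highest gene, overlapped at 10.83 to 11.22 against 11.08 to 11.20. Endoderm markers stood at 3 of 9 against 0 of 9, with sums of 8.58 to 8.91 against 6.32 to 6.90. For Actb, the 3' minus 5' control difference was 3.32 to 3.88 in the day 32 sample and 2.70 to 2.94 in iPSC in 2i and serum. That of Gapdh was 1.47 to 2.25 against 0.84 to 1.13. The part of either cell type, or of these control values, in the collagen differences was not tested.

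Among pathway lists in this comparison, 2 of 10 basement membrane partners were higher and 0 lower, where 5.23% of all genes were higher and 2.5% lower, led by the laminin chain Lama4 (at least 18.9-fold, limma adjusted p = 0.0027), a call that held without any single array. Of 8 crosslinking and partner genes 2 were higher, Bgn first (12.8-fold, adjusted p = 0.0213). Bgn lost its call without day 32 replicate a (0.171) or without replicate a of iPSC in 2i and serum (0.0684). Of 14 folding enzymes 2 were higher, of 5 degradation genes 1 and of 7 regulators 1, with 0 lower in each. Apart from Lama4 and Bgn, these called genes (Lamb1, Loxl4, P4ha2, Plod2, Mmp2 and Tgfbr2) each lost their call on leaving out at least 3 of the 4 arrays in turn. Lamb1, P4ha2 and Plod2 lost it on leaving out any. None of the 6 secretion genes and 4 receptors was called by limma, with 1 and 1 at an unadjusted p under 0.05.

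Across the array classes, the share of collagens called was below or near that of all genes. In iPSC with MEFs, 7 of 19 collagens were called against iPSC in 2i and serum (1 higher and 6 lower), while 61.1% of all genes were called (8.15% higher, 52.9% lower) around a median of -1 over all genes. Col1a2 was the gene called higher, at least 2.69-fold (difference 2.98, limma adjusted p = 6.46e-05), and Col4a2 was 12-fold lower in iPSC with MEFs (-3.58, adjusted p = 0.00296), and these 2 calls held under every alternative. Col1a2 was tested only because the arrays of iPSC with MEFs were above 4. Col4a1 was 5.86-fold lower (-2.55, adjusted p = 0.0233), and lost its call without replicate b of iPSC in 2i and serum (-1.31, adjusted p = 0.178), without either array of iPSC with MEFs (0.0833 and 0.0943) and after quantile normalization (0.21) or median centring (0.161). Leaving out replicate b of iPSC in 2i and serum left 3 calls and gave a median over collagens of 0.15, in place of -0.51. The count was 4 without iPSC with MEFs replicate a and 3 without replicate b. Against the day 32 sample, the mean of the sorted fractions was lower for 15 of 19 collagens (78.9%), beside 79.2% called among all genes (5.16% higher, 74.1% lower), with medians of -1.80 and -1.49. Col6a1, Col6a2, Col6a3, Col4a5 and Col9a3 kept their calls there under every alternative, at differences of -3.46, -2.96, -2.98, -3.81 and -2.95. For Col9a3 the mean joins unlike fractions, Sox2-positive cells at 7.29 and 5.35 and Sox2-negative cells at 2.09 and 2.73. The Sox2-positive arrays overlapped the day 32 arrays for this gene (6.61 and 8.01). Col4a5 was tested only because its day 32 arrays were above 4. The directions of Col5a1 and Col18a1 (-1.22 each) flipped after quantile normalization, to 0.14 and 0.13, and those of Col1a2 (-0.62) and Col16a1 (-0.74) after median centring, to 0.40 and 0.28. Without day 32 replicate b the count was 7. In both comparisons the array class cannot be told apart from the group.

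Over the 5 group means, the genes most like Col1a1 among those tested were Morf4l2, Hars, Gnl2, Idh3a and Fzd2 (Pearson r 0.999 to 0.993), and those most like Col4a1 were Hacd4, Thsd1, Polr3f, Aldh3a1 and Tm2d1 (0.998 to 0.992). These values rest on 5 points from the same arrays and are given as a description. Col1a2 had r = 0.80 with Col1a1 and -0.84 with Col4a1 on the same points.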

How the data were processed

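Expression was measured on 10 arrays. Per the submitters' processing notes the authors used GCRMA and affy for the deposited log2 values (versions not given in the sources used), and per the labels RNA was extracted with Trizol and amplified with either of 2 NuGEN Ovation kits, without saying which array had which. Joint normalization of the arrays is not stated. Values lay between 0.58 and 14.51 and were used as deposited.

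Of 22690 probe sets 20380 had a single symbol in the platform annotation. A probe set was kept when above log2 4 on at least 2 arrays (14012), and a gene was read by its kept probe set of highest mean (8599 genes). Comparisons used limma 3.58.1 (R 4.3.3), in a model of all 10 arrays with a mean per group (residual df 5, prior df 4.1), and Benjamini-Hochberg values cover all 8599 genes. A gene was called at an adjusted p under 0.05. Fit values are given for collagens that were called or differed by at least 2, and pathway genes are named in order of p. The fit was tested on simulated arrays. Members, lists and tests were chosen with earlier results of these data known. The number of arrays limits the precision. Plots were made in Python 3.11.15 with matplotlib 3.10.9. Alternatives were other filters, scalings, probe set means, array weights, arrays left out and a replicate block.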

Additional observations from a re-analysis of the deposited data

How the results depend on the processing

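Of 50 called collagen differences, 19 kept their call in every alternative, 25 lost it on leaving out at least 1 array, and none reversed when an array was left out. Quantile normalization removed 17 calls, median centring 15 and setting values under 4 to 4 (an alternative chosen after seeing the data) 14. For Sox2-positive against Sox2-negative cells the count of 5 became 8 with the mean of all probe sets, 3 with array weights, 3 with only the arrays compared and 2 with values under 4 set to 4, and the median of -0.94 became -0.27 with no filter and -0.12 with that floor. For Sox2-positive cells against iPSC with MEFs the median was -1.09 with a filter of 5. For Sox2-negative cells against iPSC with MEFs the floor gave 7 calls and a median of 0.00, and quantile normalization turned the procollagen enhancer Pcolce to 0.01. For the day 32 sample versus iPSC in 2i and serum the median was 0.17 with no filter and 2.39 with a filter of 5, and the count was 3 after quantile normalization and 8 with array weights. For iPSC with MEFs against iPSC in 2i and serum the count was 16 with no filter, 4 after quantile normalization and 3 with the floor, and median centring turned the median to 0.51 and Col5a3 to 0.01. For the fractions against the day 32 sample the count was 23 with no filter and 7 after quantile normalization or median centring. The median there was -0.97 with no filter, -2.51 with a filter of 5, -0.70 after quantile normalization, -0.78 after median centring and -1.22 with the floor. Quantile normalization turned Col18a1 and Col5a1 there to 0.13 and 0.14, and median centring turned Col16a1 and Col1a2 to 0.28 and 0.40. With the mean of all probe sets, 3 collagens were above 4 in Sox2-positive cells. No filter, a filter of 5 or the mean of all probe sets changes which genes are tested. With the mean of all probe sets 17 collagens were tested in place of 19. Setting values under 4 to 4 removes by construction any difference between values under 4. For the other settings the cause was not tested.

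With each array left out in turn, the counts ranged from 3 to 5 for the fractions, 3 to 6 for Sox2-positive cells and 7 to 10 for Sox2-negative cells against iPSC with MEFs, 3 to 6 for the day 32 sample versus iPSC in 2i and serum, 3 to 7 between the iPSC groups, and 7 to 16 for the fractions against the day 32 sample. The medians ranged in the same order from -1.04 to -0.59, -0.22 to 0.05, -0.12 to 1.11, 0.74 to 1.47, -0.67 to 0.15 and -1.96 to -1.58. A group left with 1 array was assumed to vary like the other groups. The labels do not say that a letter marks a shared culture, and correlations of the replicate differences between groups were -0.062 to 0.33, so the arrays were not treated as paired. The highest were between the day 32 sample and the Sox2-positive (0.33) and Sox2-negative (0.209) fractions. With the replicate block the counts in that order were 6, 8, 11, 5, 7 and 15, and 1 called collagen difference lost its call, Col9a3 between the iPSC groups (adjusted p = 0.0587, limma). Values under 4 lie near background, so differences among dim genes are poorly measured.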
